A study of Mus musculus with 8 samples.

Results

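The MHC class II presentation genes were followed across 8 mouse mammary glands as 10 listed genes: the invariant chain Cd74, the coactivator Ciita, the class II chains H2-Aa, H2-Ab1, H2-Eb1 and H2-Eb2, and the peptide-loading chains H2-DMa, H2-DMb1, H2-Oa and H2-Ob. Of these, 9 were measured by a probe set that names 1 gene, among 19938 genes in all. H2-DMb1 has only a probe set that also names H2-DMb2 and is described apart. The genes were chosen because earlier results of the same arrays had brought them forward, so their values between the genotypes are a description.

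The study deleted Sox9, a transcription factor of mammary progenitor cells, from the mammary epithelium. Both groups carry the MMTV-Cre transgene, in which the promoter of mouse mammary tumour virus drives Cre mainly in mammary epithelial cells, and both were virgin females of 5 weeks of the labelled strain C57BL/6 X FVB. The controls were MMTV-Cre;Sox9 flox/+ (4 glands), which already have 1 floxed Sox9 allele exposed to Cre, and the others MMTV-Cre;Sox9 flox/flox (4 glands). RNA came from whole gland tissue, taken from the mammary gland numbered 4 beside its lymph nodes, on 1 Affymetrix Gene 1.0 ST array a gland. The labels give no genotype of the H2 region for any mouse of the cross.

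Class II molecules present peptides taken up from outside the cell to CD4+ T cells, and are made mainly by dendritic cells, macrophages and B cells, and by some epithelial cells under interferon gamma. Ciita binds no DNA itself and joins factors seated on a shared promoter module, which holds an X box bound by RFX and a Y box bound by NF-Y. Cd74 fills the groove of a new class II molecule, its remnant CLIP is exchanged for peptide with the help of H2-DM, and H2-O holds H2-DM back, mostly in B cells.

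The shared promoter module is shown here because it is the known common element of the family. RefSeq promoters (assembly GRCm38.p6, 250 bases before to 50 after the gene start) were read as 8 entries for 7 of the listed genes. Promoters of Cd74, Ciita and H2-Ab1 were not read, so the counts below cover those 7 genes only. Each of the 7 genes had the Y box letters GATTGG on either strand in at least 1 entry, against 16.1% of 32851 mouse promoters. An X box core written AGNNACNGA was found on either strand in 5 of them, against 17.7% of promoters. In H2-Oa that core was at -141 from the gene start, far from GATTGG at -44. In H2-Ob it was on the opposite strand only. The longer letters CTGATTGG, which contain GATTGG, were found on either strand in 4 genes and 4.1% of promoters. H2-Eb1, H2-Eb2 and H2-DMb1 had the X core 24 to 40 bases before GATTGG on the same strand, a pair found in 15 promoters, or 0.0457%. The stretches below are 60 bases each, from the gene's own strand, 5′ to 3′, with GATTGG and, in those 3 genes, the X core in capitals. They lie at H2-Aa at chr17:34287853-34287912 (minus strand), H2-Eb1 at chr17:34305767-34305826 (plus strand), H2-Eb2 at chr17:34325534-34325593 (plus strand), H2-DMb1 at chr17:34153089-34153148 (plus strand), H2-Oa at chr17:34092295-34092354 (plus strand), H2-Ob at chr17:34238807-34238866 (plus strand).
H2-Aa: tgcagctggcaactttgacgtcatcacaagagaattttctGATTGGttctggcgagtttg
H2-Eb1: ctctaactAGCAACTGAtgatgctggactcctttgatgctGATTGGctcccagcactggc
H2-Eb2: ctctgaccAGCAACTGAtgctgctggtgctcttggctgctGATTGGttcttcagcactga
H2-DMb1: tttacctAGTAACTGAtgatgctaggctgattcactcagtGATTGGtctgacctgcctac
H2-Oa: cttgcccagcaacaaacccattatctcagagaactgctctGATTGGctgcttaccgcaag
H2-Ob: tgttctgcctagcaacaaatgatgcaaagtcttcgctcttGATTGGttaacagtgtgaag
In the pair, the X core began 32 bases before GATTGG in H2-Eb1, 32 in H2-Eb2 and 33 in H2-DMb1. H2-Aa, H2-Oa and H2-Ob had GATTGG at 49, 44 and 58 bases before the gene start and no pair in this window. A match of letters is a description and shows no binding. The exact letters can miss variants of the X box, so a missing pair does not show that the module is absent.

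The 8 arrays differed little over all probe sets before normalization, with a median absolute log2 difference of 0.12 to 0.19 between any 2 arrays. Sox9 was read as a check of the labels. Its intensity was 424.1, 448.3, 401.4 and 365.8 in the flox/+ glands and 297.6, 356, 286.9 and 351.2 in the flox/flox glands. It was lower in every flox/flox gland than in every flox/+ gland, as were 3.16% of all genes. Its log2 difference was -0.33, and limma's adjusted p was 0.256. Only 8 of the 19938 genes passed an adjusted p of 0.05 (0.0401%). Markers of luminal epithelium, which the labelled tissue should hold, summed to 13330 to 16040 in the flox/+ glands and 13010 to 16660 in the flox/flox glands. One array stood apart: flox/+ replicate 2 had the highest value of 17 of 17 measured B cell markers and 14 of 15 T cell markers. The B cell markers summed to 6741 there, against 1839 to 2014 in the other flox/+ glands and 1902 to 2188 in the flox/flox glands. In whole tissue, fewer cells of a type and less RNA per cell cannot be told apart. Values that move with this array are given beside those of the other 7 arrays.

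None of the 9 measured class II genes passed the adjusted threshold. Their differences between the genotypes were 6 positive and 3 negative, with a median of 0.05 on the log2 scale, against -0.01 over all genes. Cd74, H2-Aa and H2-DMa, 3 of the 9, were higher in flox/flox glands at an unadjusted p under 0.05, as were 4.81% of all genes. The number lower at that p was 0, beside 5.46% of all genes, and the number whose values did not overlap between the genotypes was 0, beside 5.9%. These shares are a description, since the genes were chosen with this contrast known. The genes did not share 1 direction, and they are described in 3 groups by the arrays where they were highest or lowest, a grouping made after the values were seen.

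**Figure D1:**
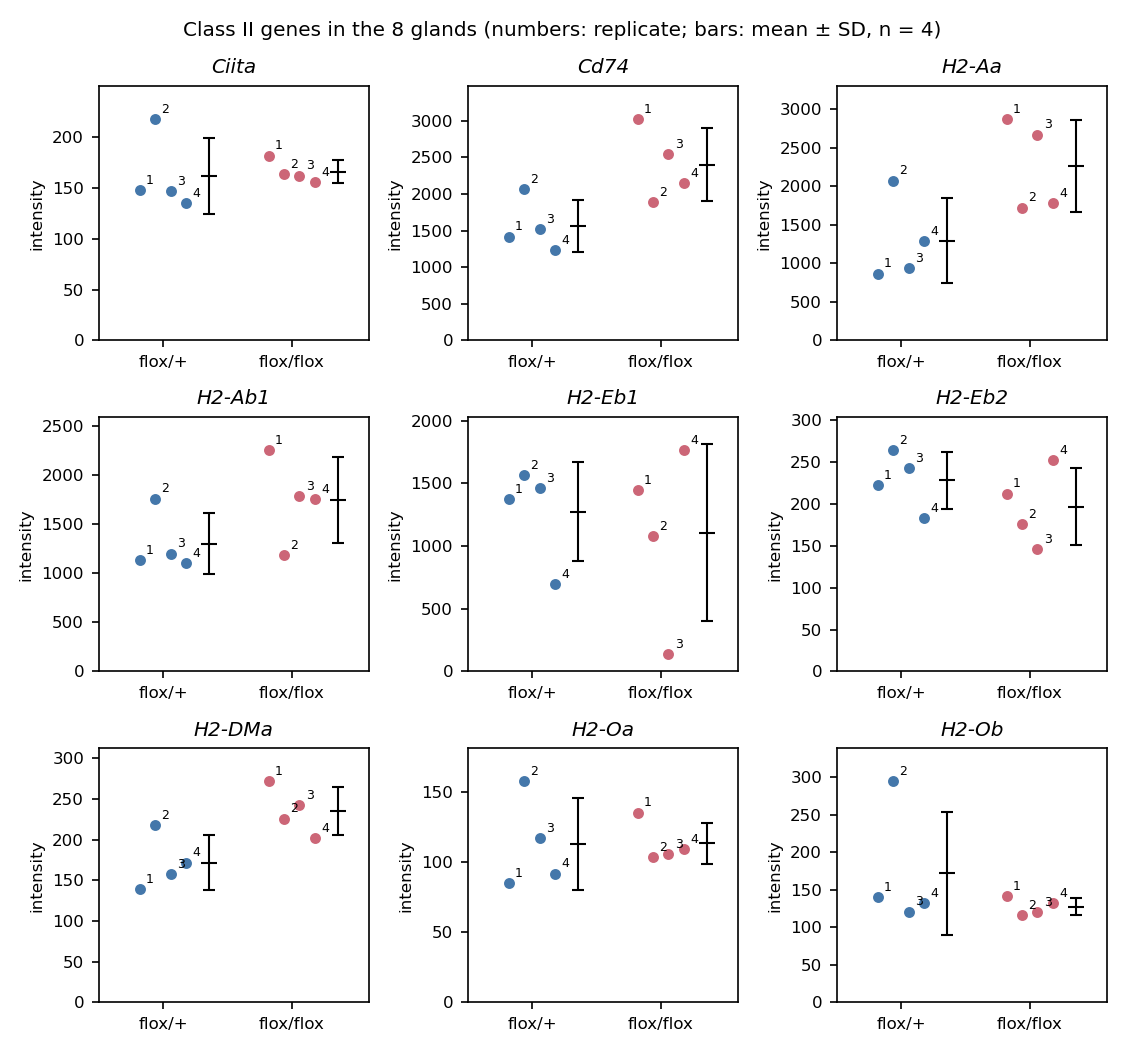
Intensity after quantile normalization (vertical axes, linear, from 0, a scale of its own per gene) of the 9 measured class II genes in 4 flox/+ and 4 flox/flox glands; numbers are replicates and bars are mean ± SD. Cd74, H2-Aa and H2-DMa lie higher on average in flox/flox glands with flox/+ replicate 2 among them, Ciita, H2-Oa and H2-Ob peak in flox/+ replicate 2, and H2-Eb1 is at 139.4 in flox/flox replicate 3.

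Cd74, the invariant chain, had intensities of 1419, 2069, 1523 and 1239 in the flox/+ glands and 3024, 1893, 2549 and 2149 in the flox/flox glands. Of the flox/+ glands, replicate 2 alone lay within the flox/flox range, above flox/flox replicate 2. The means were 1562 ± 357 (SD, n = 4) and 2404 ± 494 (SD, n = 4), a log2 difference of 0.62 with a standard error of 0.17 and a 95% interval of 0.25 to 0.99. The fold was 1.54, and limma's Benjamini-Hochberg adjusted p was 0.25.

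H2-Aa, the alpha chain of the class II molecule I-A, had the largest difference of the 9 genes in size. Its intensities were 867.7, 2073, 937.7 and 1291 in the flox/+ glands and 2870, 1722, 2670 and 1786 in the flox/flox glands. Again flox/+ replicate 2 alone reached into the flox/flox range. The log2 difference was 0.85 with a standard error of 0.26 and a 95% interval of 0.27 to 1.43, a fold of 1.8, and limma's adjusted p was 0.294.

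H2-Ab1, the beta chain that pairs with H2-Aa, had intensities of 1131, 1758, 1199 and 1101 in the flox/+ glands and 2251, 1181, 1784 and 1756 in the flox/flox glands. The ranges overlapped at both ends, since flox/flox replicate 2 lay among the 3 lower flox/+ glands. The log2 difference was 0.41 ± 0.19 (SE), and limma's adjusted p was 0.5.

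H2-DMa, the alpha chain of the molecule that exchanges CLIP for peptide, had intensities of 139.5, 218, 157.5 and 171.9 in the flox/+ glands and 272.1, 225.9, 242.9 and 202 in the flox/flox glands. Only flox/flox replicate 4 fell below flox/+ replicate 2, and every other flox/flox gland lay above every flox/+ gland. The log2 difference was 0.43 ± 0.13 (SE), a fold of 1.35, and limma's adjusted p was 0.269. Its partner H2-DMb1 shares a probe set with H2-DMb2, whose intensities were 216.5, 542, 252.7 and 238 in the flox/+ glands and 473.4, 322.1, 488.7 and 341.6 in the flox/flox glands. That probe set had its highest value in flox/+ replicate 2, and its log2 difference was 0.44 ± 0.27 (SE), with limma's adjusted p of 0.668 over all 35557 probe sets. H2-Ea, the gene of the known partner chain of H2-Eb1, was not among the 10. Whether these mice make a protein from it was not measured. Its intensities were 81.54, 78.36, 91.34 and 89.1 in the flox/+ glands and 122.4, 129.1, 138.7 and 65.93 in the flox/flox glands. In 3 of 4 flox/flox glands it lay above every flox/+ gland and in flox/flox replicate 4 below them all, with a log2 difference of 0.32 and limma's adjusted p of 0.555. The 4 genes Cd74, H2-Aa, H2-Ab1 and H2-DMa were all highest in flox/flox replicate 1. That gland also had the highest value of 7 of 10 endothelial markers and of 4 of 16 macrophage markers. Its summed macrophage markers were 12760, the highest, beside 12460 in flox/+ replicates 3 and 4. The mean z-score of the macrophage markers was 0.431 there, below 0.783 and 0.737 in those 2 glands. The part of these markers in the 4 genes was not tested.

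Leaving out flox/+ replicate 2 separated the genotypes in more of these genes. Without it, 4 of the 9 genes (Cd74, Ciita, H2-Aa and H2-DMa) were higher in every flox/flox gland than in every remaining flox/+ gland, beside 4.2% of all genes. In each of these 4, flox/+ replicate 2 was the only flox/+ gland that reached into or above the flox/flox range. Leaving it out thus fixed their separation in advance, and the count is no added support. Higher at an unadjusted p under 0.05 were 5 of 9, these 4 and H2-Ab1, beside 4.22% of all genes. The log2 difference became 1.10 ± 0.20 (SE) for H2-Aa, 0.76 ± 0.15 (SE) for Cd74 and 0.55 ± 0.11 (SE) for H2-DMa. Limma's adjusted p was 0.153 for H2-Aa and 0.171 for Cd74 and H2-DMa, so none passed with 3 flox/+ glands either. The B cell marker score was 2.223 in flox/+ replicate 2 and -0.535 to 0.011 in every other gland. As a covariate over all 8 arrays it therefore largely repeats leaving that array out and is no separate support. The log2 difference of H2-Aa was 1.10 in this fit as well. Limma's adjusted p was then 0.0624 for H2-Aa and 0.119 for Cd74 and H2-DMa. The part of B cell and T cell content in the genotype difference was not tested beyond these values.

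**Figure D2:**
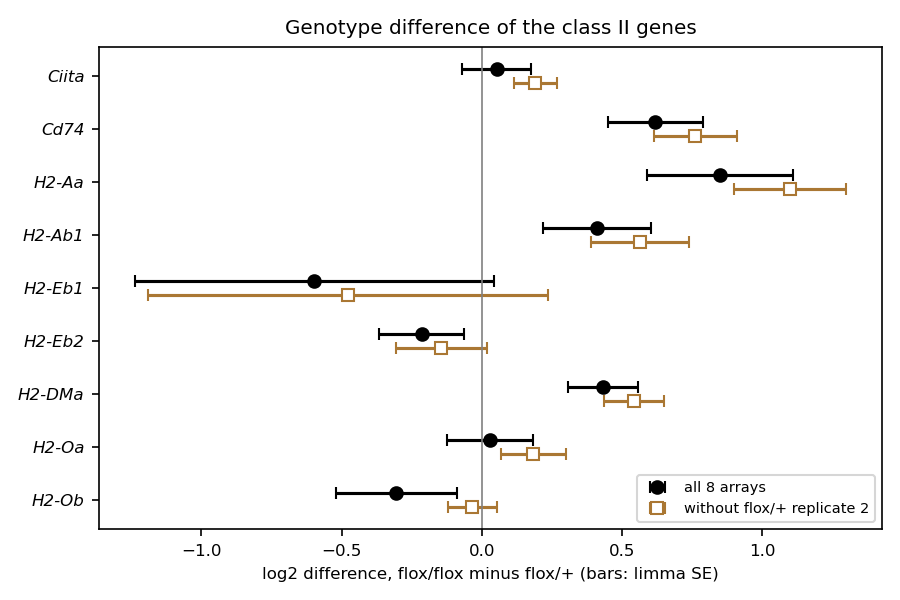
Log2 difference, flox/flox minus flox/+, with limma's standard error as bars (horizontal axis) for the 9 class II genes (vertical axis), over all 8 arrays (filled circles) and without flox/+ replicate 2 (open squares). H2-Aa moves from 0.85 to 1.10, Cd74 from 0.62 to 0.76 and H2-Ob from -0.30 to -0.03, while H2-Eb1 keeps the widest error.

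Ciita, the coactivator that sets class II transcription, differed little between the genotypes. Its intensities were 147.5, 217.3, 146.4 and 134.7 in the flox/+ glands and 181.6, 163.7, 162 and 155.3 in the flox/flox glands. The flox/flox glands all lay between flox/+ replicate 2 and the other 3 flox/+ glands. The log2 difference was 0.05 ± 0.12 (SE), with limma's adjusted p of 0.925, and without flox/+ replicate 2 it was 0.19 ± 0.08 (SE), with an adjusted p of 0.481.

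H2-Ob, the beta chain of the B cell inhibitor of H2-DM, had intensities of 139.8, 294.8, 120.8 and 132.3 in the flox/+ glands and 141.6, 116.5, 120.1 and 132.8 in the flox/flox glands. Apart from flox/+ replicate 2, the 7 glands lay between 116.5 and 141.6. Its log2 difference of -0.30 (limma's adjusted p 0.673) became -0.03 ± 0.09 (SE) without that array.

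H2-Oa, the alpha chain of the same inhibitor, had intensities of 85, 157.3, 117 and 91.62 in the flox/+ glands and 134.9, 103.2, 105.3 and 109 in the flox/flox glands. It was likewise highest in flox/+ replicate 2, and the genotypes overlapped throughout. The log2 difference was 0.03 ± 0.15 (SE), with limma's adjusted p of 0.969. Beside these values stands the B cell factor Pax5, whose intensity was 761 in flox/+ replicate 2 and 102.8 to 151.8 in the other 7 glands.

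**Figure D3:**
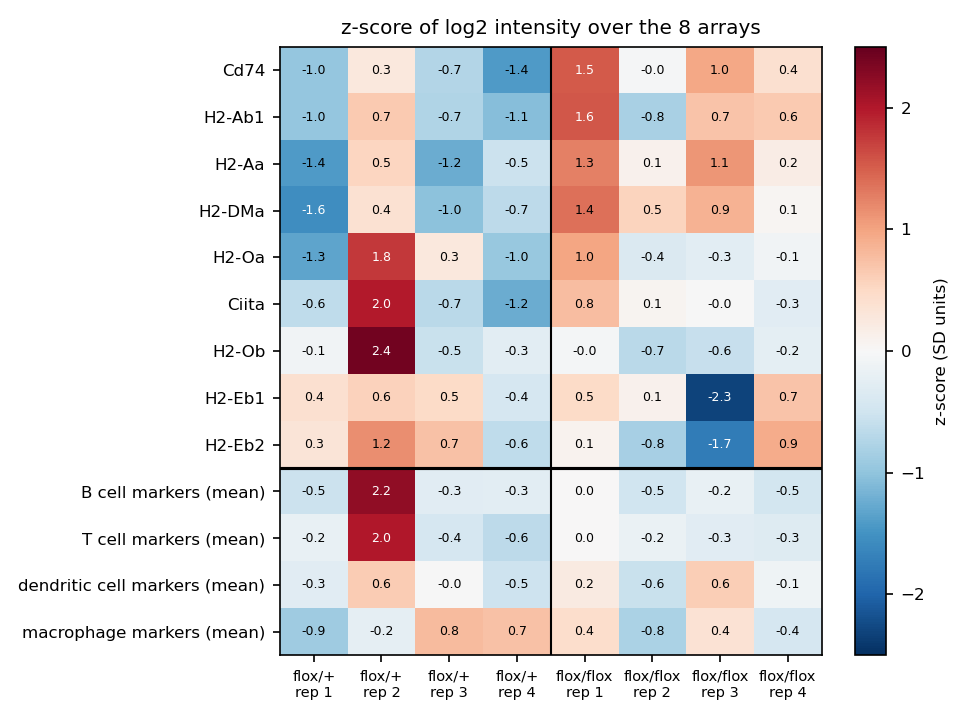
z-scores of log2 intensity over the 8 arrays (columns, 4 flox/+ then 4 flox/flox) for the 9 class II genes and, under the line, the mean z-score of 4 marker lists (rows); red is above and blue below the gene's mean over the 8 arrays. Ciita, H2-Oa, H2-Ob and the B and T cell markers are highest in flox/+ replicate 2, whereas Cd74, H2-Aa, H2-Ab1 and H2-DMa are highest in flox/flox replicate 1.

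H2-Eb1, the beta chain of the class II molecule I-E, varied most between glands. Its intensities were 1372, 1568, 1460 and 697.7 in the flox/+ glands and 1449, 1077, 139.4 and 1765 in the flox/flox glands. Flox/flox replicate 3 was far below the others, with a ratio of 12.7 between the highest and the lowest gland. The log2 difference of -0.60 ± 0.64 (SE) had limma's adjusted p of 0.8, and without flox/flox replicate 3 it turned to 0.20 ± 0.27 (SE), with an adjusted p of 0.839.

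H2-Eb2, the neighbouring beta chain gene, had intensities of 222.6, 264.1, 242.4 and 182.9 in the flox/+ glands and 212.1, 175.8, 145.6 and 252.3 in the flox/flox glands. Its lowest gland was also flox/flox replicate 3, but only by a small margin. The log2 difference was -0.21 ± 0.15 (SE), with limma's adjusted p of 0.673. It was -0.09 without flox/flox replicate 3 and -0.34 without flox/flox replicate 4, with adjusted p of 0.865 and 0.498. In the same flox/flox replicate 3, H2-Aa at 2670 and Cd74 at 2549 were each second of the 8 glands.

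The low value of H2-Eb1 in flox/flox replicate 3 was shared by a few genes of the same region, an observation made after the values were seen. Only 4 of 19938 genes (0.0201%) lay at least 1 log2 unit below every other array in that gland: H2-Eb1, H2-Q10, D17H6S56E-5 and Cdsn. All 4 are among the 157 measured genes between the first and the last H2 gene of mouse chromosome 17, an interval that holds 7 of the measured class II genes. In the other 7 arrays, 0 to 2 genes a gland met the same rule over all genes, and 0 in this interval. H2-Q10, a secreted class I molecule, had 6.93 in flox/flox replicate 3, under the offset of 16, and 314.2 to 663.1 elsewhere. D17H6S56E-5 had 86.05 there and 909.1 to 3426 elsewhere. Cdsn, the adhesion protein corneodesmosin, had 97.99 there and 292 to 708.4 elsewhere.

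**Figure D4:**
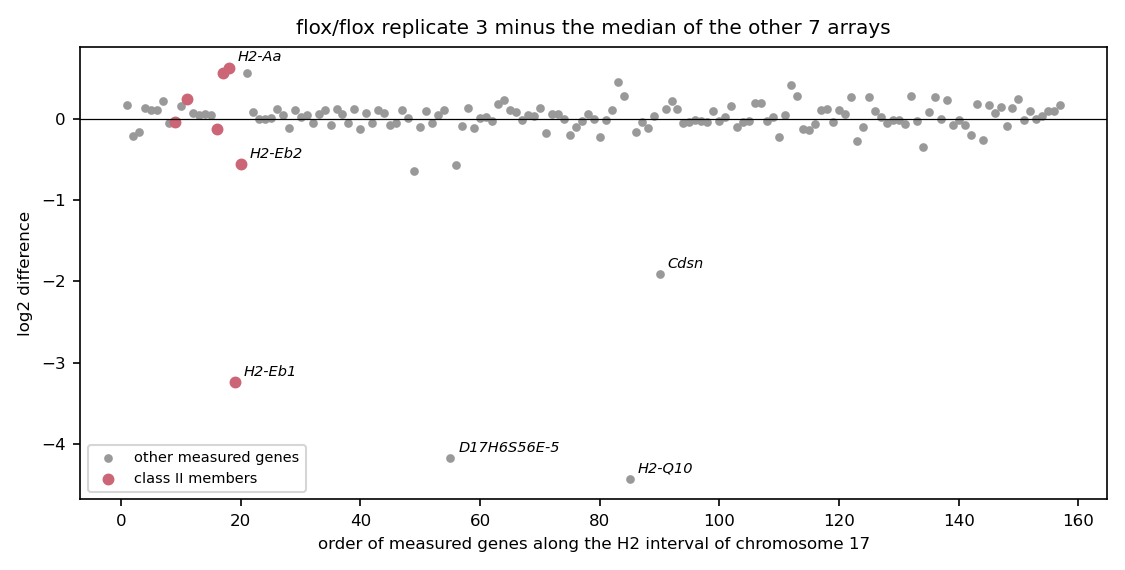
Log2 intensity of flox/flox replicate 3 minus the median of the other 7 arrays (vertical axis) for 157 measured genes in their order along the H2 interval (horizontal axis); red points are the class II genes. H2-Eb1, H2-Q10, D17H6S56E-5 and Cdsn lie far below 0, while H2-Aa lies above it.

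A different set of glands was low in H2-Q4, another gene of the interval. H2-Q4, a class I gene, had 413.9 and 293 in flox/+ replicates 1 and 3 and 1114 to 2253 in the other 6 glands. The same 2 glands were the lowest pair for 7 of the 157 interval genes (4.46%), among them H2-Aa and H2-DMa. That share is near the one over all genes, 716 (3.59%), so it sets the interval little apart. Of the interval genes, 19 (12.1%) were in the top 5% of all genes by spread within genotype. These pairs and genes were picked from the values and carry no test. The H2 genotype of each mouse was not used here.

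Over all 8 arrays the SD within genotype stood at the 88.5th percentile of all genes for Ciita, 89.2 for H2-DMa, and between 95.2 and 99.9 for the other 7 genes. Beside genes of like level the percentiles ran from 91.2 in H2-DMa to 99.9 in H2-Eb1. For 4 of the genes the high spread rested on flox/+ replicate 2. Without that array the percentile was 19.2 for Ciita, 40.5 for H2-Ob, 72.3 for H2-DMa and 80.8 for H2-Oa. The remaining 5 genes, Cd74, H2-Aa, H2-Ab1, H2-Eb1 and H2-Eb2, then lay between 93.1 in Cd74 and 99.96 in H2-Eb1.

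Pearson's r between members is given as a description over arrays that share their normalization. The 6 pairs among Cd74, H2-Aa, H2-Ab1 and H2-DMa had r from 0.793 to 0.973 over the 8 arrays, and from 0.79 to 0.974 without flox/+ replicate 2. The highest was between H2-Aa and H2-DMa. The 3 pairs among Ciita, H2-Oa and H2-Ob had r from 0.694 to 0.871, but from -0.009 to 0.712 without that array.

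The first 2 groups were apart over the 8 arrays and not within genotype. The 12 pairs that join one of Cd74, H2-Aa, H2-Ab1 and H2-DMa with one of Ciita, H2-Oa and H2-Ob had r from 0.116 to 0.685 over the 8 arrays. With each genotype's mean taken out they had r from 0.713 to 0.84, close to the 0.679 to 0.946 and 0.789 to 0.939 found inside the groups. Without flox/+ replicate 2 as well, these 12 pairs ran from 0.086 to 0.763. Without that array but with the genotype means kept, they ran from -0.124 to 0.927. Ciita then had an r of 0.927 with Cd74 and 0.057 with H2-Ob, so its place beside H2-Ob rested on flox/+ replicate 2. H2-Eb1 and H2-Eb2 stayed together in each reading, with an r of 0.864 over the 8 arrays, 0.858 within genotype and 0.879 without flox/+ replicate 2. With the other members their r ran from -0.35 to 0.548 over the 8 arrays. H2-Aa and H2-Eb1, which encode chains of the 2 classical molecules, gave the lowest of these at -0.35. In flox/flox replicate 3, H2-Eb1 was at 139.4, its lowest value, and H2-Aa at 2670, its second highest. No r was computed without that gland, so the negative r shows no opposed course of the 2 genes.

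The summed levels of macrophage and dendritic cell markers overlapped between the genotypes. Macrophage markers summed to 8133 to 12460 in the flox/+ glands and 9056 to 12760 in the flox/flox glands, and dendritic cell markers to 3465 to 4132 and 3218 to 4454. No marker of the B cell, T cell or macrophage lists was below 16 in any array. Of the 17 dendritic cell markers, 1 was below 16, in flox/flox replicate 1. The correlation of the list score with the mean z-score of the class II genes over the 8 arrays was 0.702 for B cells, 0.74 for T cells, 0.67 for dendritic cells, -0.044 for macrophages and -0.617 for luminal epithelium. Without flox/+ replicate 2 it was 0.358 for B cells, 0.669 for T cells, 0.523 for dendritic cells, 0.051 for macrophages and -0.466 for luminal epithelium. Of 16 macrophage markers, 7 had positive and 9 negative differences, and 2 were lower in every flox/flox gland than in every flox/+ gland, beside 3.16% of all genes. These were the Fc receptor Fcgr1, with 209.2 to 346.8 against 188.4 to 205.7, and the chemokine receptor Cx3cr1, with 203.9 to 217.1 against 166.3 to 201, and limma's adjusted p was 0.324 and 0.45. Among the brightest markers, the macrophage lysozyme Lyz2 had a mean of 2458 ± 622 (SD, n = 4) in flox/+ and 2771 ± 648 (SD, n = 4) in flox/flox glands. The receptor Mrc1 had a log2 difference of 0.19 and the complement chain C1qb one of -0.19, with limma's adjusted p of 0.706 and 0.738. The dendritic cell lectins Mgl2 and Clec10a had log2 differences of 0.42 and 0.04, and the actin bundler Fscn1 one of -0.31, with limma's adjusted p from 0.45 to 0.97. The B cell markers were 2 positive and 15 negative of 17, with a median of -0.26, and without flox/+ replicate 2 they were 9 positive and 8 negative, with a median of 0.09. The B cell genes Tnfrsf13c, Cd37 and Pax5 had log2 differences of -0.07, 0.07 and -0.45, with limma's adjusted p from 0.803 to 0.95. Without that array the differences were -0.03, 0.32 and 0.19, with limma's adjusted p from 0.544 to 0.954.

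Genes that act beside class II were read from lists. Regulators of class II transcription were 7 positive and 11 negative of 18 measured, with a median of -0.01. None of them passed the adjusted threshold, and 1 of 18 was lower at an unadjusted p under 0.05, near the 5.46% of all genes. It was Irf4, a factor of dendritic, B and plasma cells, with intensities of 274.7, 332.7, 424.1 and 508.9 in the flox/+ glands and 343.5, 198, 222.7 and 236.8 in the flox/flox glands. Only flox/flox replicate 1 lay inside the flox/+ range, and the log2 difference was -0.58 ± 0.19 (SE), with limma's adjusted p of 0.325. The interferon gamma receptor chain Ifngr2 had a log2 difference of -0.20 and the myeloid factor Spi1 one of 0.15, with limma's adjusted p of 0.495 and 0.722.

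Peptide processing genes were 7 positive and 5 negative of 12, with a median of 0.003. None passed, and Cd63, a tetraspanin of late endosomes, was the one lower at an unadjusted p under 0.05, beside 5.46% of all genes. Its intensity was 567.6, 587.1, 614.4 and 525.9 in the flox/+ glands and 461.7, 447.7, 419.4 and 528.3 in the flox/flox glands. Flox/flox replicate 4 alone reached the flox/+ range, and the log2 difference was -0.30 ± 0.08 (SE), with limma's adjusted p of 0.257. Ctss, the protease that trims the invariant chain in antigen-presenting cells, had a log2 difference of 0.18 and Ctsl, a related protease, one of 0.11, with limma's adjusted p of 0.773 and 0.732.

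Surface partners were 7 positive and 7 negative of 14, with 1 in each direction at an unadjusted p under 0.05 and none past the adjusted threshold. Over all genes 4.81% were higher and 5.46% lower at that p, and 5.9% had values without overlap. The costimulatory receptor Cd40 had a mean of 318.8 ± 9.87 (SD, n = 4) in flox/+ and 279.5 ± 16.3 (SD, n = 4) in flox/flox glands, without overlap, and limma's adjusted p was 0.362. Cd44, the receptor that joins Cd74 in MIF signalling, had means of 391.9 ± 56.2 and 474 ± 55 (SD, n = 4 each), also without overlap, and limma's adjusted p was 0.457. Cxcr2, another receptor that joins Cd74, had a log2 difference of -0.18 and an adjusted p of 0.538 in limma's fit.

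Class I presentation genes were 12 positive and 6 negative of 18, with a median of 0.04. None passed the adjusted threshold, and 2 were higher at an unadjusted p under 0.05: Psme1, a proteasome activator subunit, and H2-Q4, beside 4.81% of all genes. Psme1 had intensities of 1159, 1212, 1131 and 1265 in the flox/+ glands and 1323, 1380, 1365 and 1302 in the flox/flox glands. All flox/flox glands lay above all flox/+ glands, as in 2.74% of all genes, with a log2 difference of 0.17 ± 0.06 (SE) and limma's adjusted p of 0.388. H2-Q4 had a log2 difference of 1.09 ± 0.49 (SE) and Tapbpl, a peptide editor of class I, one of 0.22, with limma's adjusted p of 0.484 and 0.576.

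The genes whose pattern over the 8 arrays was most like the mean z-score of the class II genes were named by r among 9964 genes of at least median level that are not members. They were Stk24 (0.973), Gcc1 (0.966), Crlf3 (0.95), Actr5 (0.944), Dock8 (0.941), Dock10 (0.94), Itga4 (0.937), Smap2 (0.935), Wdfy4 (0.929) and Iqgap1 (0.926). Without flox/+ replicate 2 their r ran from 0.897 for Dock10 to 0.983 for Wdfy4. Their own log2 differences between the genotypes were at most 0.07 in size, in Iqgap1. These 10 values out of 9964, over 8 arrays, are the extremes of many and carry no test.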

How the data were processed

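RNA was measured in 8 mammary glands, 4 of each genotype, each on its own array. The authors deposited linear intensity per probe set. The submitters' processing notes name PLIER and Affymetrix Expression Console 1.0. The correction of background and of arrays is not given in the sources used here, and no detection calls were used. Of 35557 probe sets, 21789 had 1 gene symbol, 1621 several and 12147 none. For a gene with several, the probe set with the highest mean stood for it, which left 19938 genes.

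Values were offset by 16, taken to log2 and quantile normalized over all probe sets. The genotype term was fitted by limma 3.58.1 (R 4.3.3), with Benjamini-Hochberg adjustment over all 19938 genes. Printed intensities are after normalization. A positive difference means higher in flox/flox, on the log2(value + 16) scale, which understates the change of dim genes. The fit was tested on simulated data. The number of arrays limits precision. Each p-value sets the genotype difference against the spread between glands within genotype, which limma moderates over all genes. Levels of different probe sets are not compared.

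The class II genes and the gene lists were chosen with earlier results of these data known. The text names all measured class II genes, Sox9, the 3 list genes of smallest p in the class I and class II lists, the 3 brightest markers of the B cell, macrophage and dendritic cell lists, and the 10 genes most like the class II mean. H2-Ea, the shared H2-DMb1 probe set, Fcgr1, Cx3cr1 and the genes of the H2 interval were named after their values were seen. Promoters and gene order are from RefSeq, assembly GRCm38.p6. Promoters of Cd74, Ciita and H2-Ab1 and protein identity were not analysed here. Alternatives covered the offset, the normalization, filters, other fits, a marker covariate, a replicate block and each array left out. Correlations, spread and list tallies without flox/+ replicate 2 were added after seeing the data.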

Additional observations from a re-analysis of the deposited data

Results flagged for a closer look

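In 5 groups a single gland lay far from the other 3 of its genotype by Dixon's criterion, 44 groups having been checked. All flags fell on flox/+ replicate 2. There Ciita was 217.3, against 134.7 to 147.5 in the other flox/+ glands. H2-Ab1 was 1758, against 1101 to 1199, and H2-Ob was 294.8, against 120.8 to 139.8. The B cell markers summed to 6741, against 1839 to 2014, and the T cell markers to 3793, against 1819 to 1970. By chance the criterion marks about 1 in 20 groups, and groups that share an array are not independent.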

How the results depend on the processing

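No class II gene passed the adjusted threshold of 0.05 in any of the 188 refits of single genes over 21 settings. The smallest adjusted p in limma's fits was 0.0624 for H2-Aa, with the B cell score as a covariate. That score is far highest in flox/+ replicate 2, so this setting is close to leaving that array out. Cd74 (0.51 to 0.76), H2-Aa (0.69 to 1.10), H2-Ab1 (0.28 to 0.59) and H2-DMa (0.35 to 0.55) kept a positive difference in all 21, and H2-Eb2 and H2-Ob a negative one. With each array left out, H2-Eb2 ran from -0.34 to -0.09, H2-Eb1 from -0.97 to 0.20, Ciita from -0.0176 to 0.19, H2-Oa from -0.0751 to 0.18, and the members' median from -0.0176 to 0.20. The cause of the changes below was not tested. H2-Eb1 turned to 0.20 without flox/flox replicate 3 and to 0.32 without that array and flox/+ replicate 2, an alternative chosen after seeing the data. H2-Oa turned to -0.0751, -0.0448 and -0.0471 without flox/+ replicate 1, flox/+ replicate 4 and flox/flox replicate 1. Ciita turned to -0.0176 without flox/+ replicate 4. H2-Oa was highest, at 0.212, with flox/+ replicate 2 and flox/flox replicate 3 left out. The members higher at an unadjusted p under 0.05 went from 3, beside 4.81% of all genes, to 5 with the B cell score, beside 4.2%. They were also 5 when both arrays were left out, beside 4.21%. With each array left out they ran from 3 to 5, beside 3.94% to 5.5%. Those without overlap and higher in flox/flox were 0, beside 2.74% in the main fit, or 1 with median centring, beside 3.25%. With each array left out they ran from 0 to 4, beside 4.03% to 5.35%. When both arrays were left out they were 4, beside 6.65%. Over all genes, the count past the threshold was 8, against 18 with median centring, 4 with an offset of 1, 19 with an offset of 64, 3 over the 13292 brightest genes, which leave out H2-Oa, 1 over all probe sets, 17 with trend and robust options and 16 with a macrophage and dendritic cell covariate. It ran from 2 to 19 with each array left out. The deviations of same-numbered glands had r from -0.204 to 0.209, which cannot exclude a shared litter or day. The labels do not state what the numbers mean, so the main fit used no pairing. With the replicate block the count was 8 and the adjusted p was 0.311 for Cd74 and 0.393 for H2-Aa. Without detection calls, signal over background is unknown for the dimmest members.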
